A study of Mus musculus with 14 samples.

Results

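The long-chain acyl-CoA synthetases are a family of 5 genes, Acsl1, Acsl3, Acsl4, Acsl5 and Acsl6, and were followed here in the mammary tumors of MMTV-neu mice, in the gland around such tumors and in wild-type gland. Members were the probe sets whose platform gene symbol, updated by gene number, is one of the 5. They came to 3 of the 12488 probe sets on the array: 102381_at and 104017_at for Acsl4, and 97456_at for Acsl5. These stand for 2 of 8252 named genes. Acsl1, Acsl3 and Acsl6 matched no probe set by symbol or gene number and were not analysed here. The family was chosen from the measured Acsl4 values, which were higher in adjacent gland than in wild-type gland and higher again in tumor, so its levels are given as a description without a test. Acsl5 was not chosen for its values and was tested.

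The MMTV-neu mouse carries the neu (erbB2, HER2) oncogene under the mouse mammary tumor virus promoter, which is active chiefly in mammary epithelium. Of the 14 arrays, 1 per RNA sample, 5 held mammary tumors (numbered 22, 24, 26, 50 and 52) and 2 held tumors of a later group, set B (80 and 81), collected to see whether the first changes recurred. Another 4 held adjacent gland (23, 25, 49 and 51), the MMTV-neu mammary tissue surrounding a tumor, which the labels call preneoplastic. The remaining 3 held age-matched wild-type mammary gland without the transgene, each array a pool of RNA from 5 mice. Pool 40 came from mice of 31 weeks, of 87.5% FVB and 12.5% CF-1 background, and pools 41 and 42 from mice of 41 weeks, of 97% FVB and 3% CF-1 background. The labels used here give no age or strain for the transgenic mice and do not say which tumor and gland shared an animal. The labels do not say whether the arrays of a group stand for separate animals. The p-values therefore reflect the scatter of these arrays alone, which could be technical.

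Long-chain acyl-CoA synthetases join a free long-chain fatty acid to coenzyme A, at the cost of ATP, and the acyl-CoA then enters phospholipids, triglycerides or beta-oxidation. Acsl4 prefers arachidonic acid and related polyunsaturated fatty acids and places them in membrane phospholipids, where they can be oxidised during ferroptosis, an iron-dependent form of cell death. Acsl5 is best known from intestine and liver, Acsl1 from adipocytes, liver and heart, Acsl3 from lipid droplets and Acsl6 from brain.

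Acsl4 lies on the X chromosome, at chrX:142317993-142390802 of GRCm38.p6, and Acsl5 on chromosome 19, at chr19:55251861-55296628. These loci span all RefSeq transcripts of a gene. The 250 bases before the single start that the RefSeq promoter table (GRCm38.p6) takes for each gene are shown so that the 2 measured members can be compared. That start is base 142390535 for Acsl4 and base 55253369 for Acsl5, which lie 267 and 1508 bases inside the upstream ends of the loci, so the windows precede that start and not the outermost one. They cover chrX:142390536-142390785 on the minus strand for Acsl4 and chr19:55253119-55253368 on the plus strand for Acsl5. Both run 5′ to 3′ towards the gene, and capitals mark matches to the motifs searched on both strands.
Acsl4: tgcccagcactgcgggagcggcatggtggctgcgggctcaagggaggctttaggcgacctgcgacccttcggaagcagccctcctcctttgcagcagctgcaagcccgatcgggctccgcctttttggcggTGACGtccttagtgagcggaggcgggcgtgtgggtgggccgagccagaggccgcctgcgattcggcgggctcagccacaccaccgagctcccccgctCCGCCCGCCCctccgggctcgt
Acsl5: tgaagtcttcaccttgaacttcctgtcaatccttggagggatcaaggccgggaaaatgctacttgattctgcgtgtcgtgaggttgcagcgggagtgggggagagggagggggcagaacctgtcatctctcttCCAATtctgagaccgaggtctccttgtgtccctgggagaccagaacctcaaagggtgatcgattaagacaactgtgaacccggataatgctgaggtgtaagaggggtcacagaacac
The Acsl4 window was 70.8% G or C with 25 CG dinucleotides, and the Acsl5 window was 52.8% with 7, against a median of 52.4% G or C over the 32851 promoter windows of the same length. The capitals in Acsl4 are 1 TGACG (part of the cAMP response element), starting 119 bases before that start, and 2 overlapping GC boxes (GGGCGG, on the opposite strand), starting 22 and 18 bases before it. In Acsl5 they mark 1 CCAAT, starting 117 bases before that start. Neither window held the E box CACGTG, the TATA box TATAAA or the nuclear receptor motif AGGTCA, also searched on both strands. Of all windows 17.8% held TGACG, 32.7% held GGGCGG, 33.8% held CCAAT, 6.02% held CACGTG, 12.4% held TATAAA and 14.0% held AGGTCA. A match describes the letters in the window and does not show a bound site.

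Values are the deposited signal intensities, with values under 101 raised to that floor (the 20th percentile of all values) before log2 was taken. Group levels are geometric means, differences are on the log2 scale with their standard error, and levels of different probe sets were not set against each other. The array medians lay between 543.7 and 784.1, and the 2%-trimmed mean of every array lay between 1500.67 and 1500.9. Of the 8616 probe sets tested after dim ones were removed, all 3 member probe sets passed. Luminal epithelial markers were measured in every group. Summed over 19 genes, they came to between 105000 and 170400 in tumors, 105700 and 134400 in set B, 74660 and 118300 in adjacent gland, and 65590 and 74630 in wild-type pools.

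On probe set 102381_at, Acsl4 was highest in tumor, intermediate in adjacent gland and lowest in wild-type gland, with no overlap between the 3. The intensities were 25540.0, 16660, 26038, 17687 and 20991 in tumors 22, 24, 26, 50 and 52. Set B tumors 80 and 81 had 18058 and 17243. Adjacent glands 23, 25, 49 and 51 had 7581, 4478, 10268 and 4172, and wild-type pools 40, 41 and 42 had 1293, 1038 and 852.0. All 7 tumors stood above all 4 adjacent glands, and all 4 adjacent glands above the 3 pools. The lowest tumor was 1.62 times the highest adjacent gland, and the lowest adjacent gland was 3.23 times the highest pool. Geometric means were 21030.0 in tumors, 17646 in set B, 6175 in adjacent gland and 1046 in wild-type gland, with SDs on the log2 scale of 0.30 (n = 5), 0.05 (n = 2), 0.62 (n = 4) and 0.30 (n = 3). Tumors were 4.33 ± 0.27 above wild-type gland, 20.1-fold, which ranked 9 of 8616 among the signed differences. Adjacent gland was 2.56 ± 0.28 above wild-type gland, 5.91-fold, again ranking 9. Tumors were 1.77 ± 0.25 above adjacent gland, 3.41-fold, ranking 49. Set B was 4.08 ± 0.34 above wild-type gland, 16.9-fold, and 0.25 ± 0.31 below the first tumors on the log2 scale, whose range overlapped its own.

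Probe set 104017_at gave the same order of the 3 tissues. Tumors 22, 24, 26, 50 and 52 had 3216, 4704, 7112, 8663 and 4343, and set B tumors 80 and 81 had 7635 and 10158. Adjacent glands 23, 25, 49 and 51 had 981.9, 520.2, 1563 and 393.4, and wild-type pools 40, 41 and 42 had 127.6, 179.1 and 178.8. The groups again did not overlap, except that set B and the first tumors did. Geometric means were 5265 in tumors, 8807 in set B, 748.7 in adjacent gland and 159.9 in wild-type gland, with log2 SDs of 0.57 (n = 5), 0.29 (n = 2), 0.90 (n = 4) and 0.28 (n = 3). The lowest tumor was 2.06 times the highest adjacent gland, and the lowest adjacent gland 2.20 times the highest pool. Tumors were 5.04 ± 0.40 above wild-type gland (32.9-fold, rank 5 of 8616), adjacent gland 2.23 ± 0.42 above it (4.68-fold, rank 26), and tumors 2.81 ± 0.37 above adjacent gland (7.03-fold, rank 4). Set B was 5.78 ± 0.50 above wild-type gland, 55.1-fold, and 0.74 ± 0.46 above the first tumors. The wild-type pools lay close to the floor on this probe set. With the floor at 208.3, the 30th percentile, all 3 pools sat at the floor, and the differences of 4.66 for tumors and 1.85 for adjacent gland from wild-type gland are then lower bounds.

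**Figure D1:**
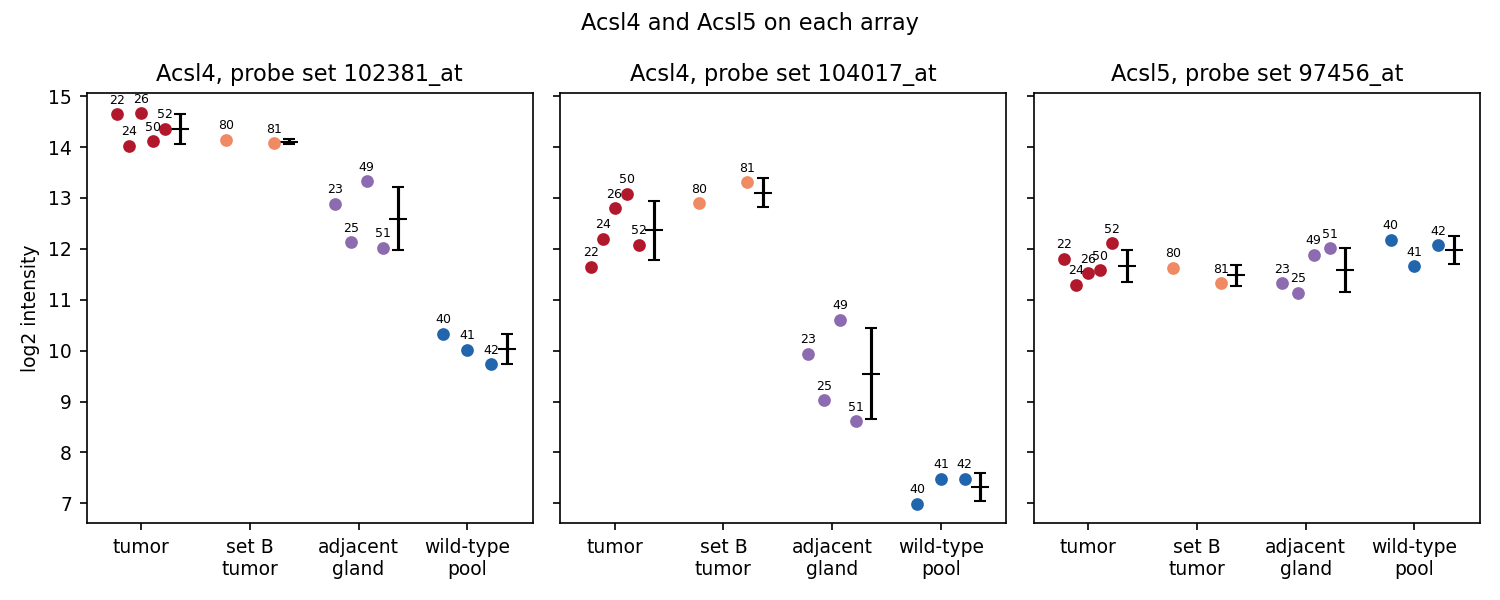
Log2 intensity of the 2 Acsl4 probe sets and the Acsl5 probe set on each of the 14 arrays (points, with array numbers), by group, with bars for the group mean ± SD. Both Acsl4 probe sets form 3 separate levels for tumor, adjacent gland and wild-type pools, whereas Acsl5 overlaps between these 3. Both set B tumors lie below the pools for Acsl5.

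The spread of Acsl4 was widest among the adjacent glands, where the log2 SD was 0.62 on 102381_at and 0.90 on 104017_at. Both probe sets put these 4 glands in the same order, with 49 highest, then 23, 25 and 51. Among the tumors the probe sets did not share an order. Tumor 22 was second on 102381_at and lowest of the 7 on 104017_at, while set B tumor 81 was highest on 104017_at and next to lowest on 102381_at. As a description, Pearson's r between the log2 values of the probe sets was -0.48 over the 7 tumors (Spearman's rho -0.464) and 0.96 over the 7 arrays of adjacent and wild-type gland (rho 0.893), where group levels set most of it. The 2 values of a point share an array.

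The labels give each array a lot batch, and lots were not spread evenly over the groups. Tumors 22, 24 and 26 and adjacent glands 23 and 25 shared lot 2001815, adjacent glands 49 and 51 and pool 40 shared lot 2004907, tumors 50 and 52 had lot 2004097, pools 41 and 42 had lot 2003877, and set B had lot 2006609. No lot held tumors and wild-type pools together. A fit with lot as a block therefore compares adjacent with wild-type gland through glands 49 and 51 and pool 40 alone, and tumor with wild-type gland by adding that to the difference of tumors 22, 24 and 26 from glands 23 and 25. Its wild-type side is 1 sample, assumed to vary like the others. With lot as a block, Acsl4 on 102381_at was 4.28 ± 0.59 higher in tumor than in wild-type gland, 2.34 ± 0.47 higher in adjacent than in wild-type gland, and 1.94 ± 0.35 higher in tumor than in adjacent gland. On 104017_at the differences were 5.35 ± 0.89, 2.62 ± 0.71 and 2.73 ± 0.53. The same 2.34 and 2.62 were measured within lot 2004907 alone (2 glands and 1 pool), and the same 1.94 and 2.73 within lot 2001815 alone (3 tumors and 2 glands), so both steps were present within a lot. Set B had a lot to itself, so lot and group cannot be told apart there.

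Differences without overlap were common in some comparisons. Every tumor array was above every wild-type array on 18.7% of the probe sets tested, every adjacent array above every wild-type array on 7.6%, every tumor array above every adjacent array on 4.96%, and both set B arrays above every wild-type array on 29.9%. Both steps up without overlap were found on 99 probe sets (1.15%), and both steps down on 184 (2.14%). Both steps reached 2-fold on 24 probe sets (0.279%) and 3-fold on 10 (0.116%). Both Acsl4 probe sets were among those 10. The others were Npy (neuropeptide Y), Col11a1 and Col9a1 (fibrillar and fibril-associated collagens), Tspan8 (a tetraspanin), Ier3 (an immediate early gene), Flvcr2 (a transmembrane transporter), Aass (lysine breakdown) and 1 probe set without a gene name. These shares describe the array and were read from the contrasts that chose Acsl4.

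Acsl5 overlapped between tumor, adjacent gland and wild-type gland. Its intensities were 3583, 2521, 2944, 3057 and 4436 in tumors 22, 24, 26, 50 and 52, and 3162 and 2571 in set B tumors 80 and 81. Adjacent glands 23, 25, 49 and 51 had 2556, 2250.2, 3784 and 4126, and wild-type pools 40, 41 and 42 had 4646, 3238 and 4310. The geometric means were 3246 in tumors, 2851 in set B, 3079 in adjacent gland and 4017 in wild-type gland. By limma with Benjamini-Hochberg adjustment over all 8616 probe sets, Acsl5 was not called in any comparison. Tumor minus wild-type gland was -0.31 ± 0.24 (95% interval -0.81 to 0.19, adjusted p = 0.345), where 29.9% of probe sets were called. Adjacent minus wild-type gland was -0.38 ± 0.25 (-0.91 to 0.14, adjusted p = 0.488), where 1.17% were called. Tumor minus adjacent gland was 0.08 ± 0.22 (-0.38 to 0.54, adjusted p = 0.877), where 14.4% were called. Each of these intervals included 0.

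Both set B tumors lay below all 3 wild-type pools for Acsl5, as they did on 27.5% of probe sets, and the limma difference of -0.49 ± 0.29 was not called (95% interval -1.12 to 0.13, adjusted p = 0.254, 23.2% of probe sets called). Set B minus the first tumors was -0.19 ± 0.27 (-0.76 to 0.39, adjusted p = 0.815). Limma called 0 of 8616 probe sets between these tumor groups, and 932 (10.8%) had an unadjusted p under 0.05. Among adjacent glands, 23 and 25 of lot 2001815 were below 49 and 51 of lot 2004907. Within the shared lots tumor minus adjacent gland was 0.32 ± 0.23 and adjacent minus wild-type gland -0.23 ± 0.27. With lot as a block, tumor minus wild-type gland was 0.08 ± 0.40, of the opposite sign to the value without it, and was not called either way (limma adjusted p = 0.963 with the block). Across the 7 tumors, r between Acsl4 (102381_at) and Acsl5 was 0.472, and across the 7 other arrays -0.446, as a description.

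**Figure D2:**
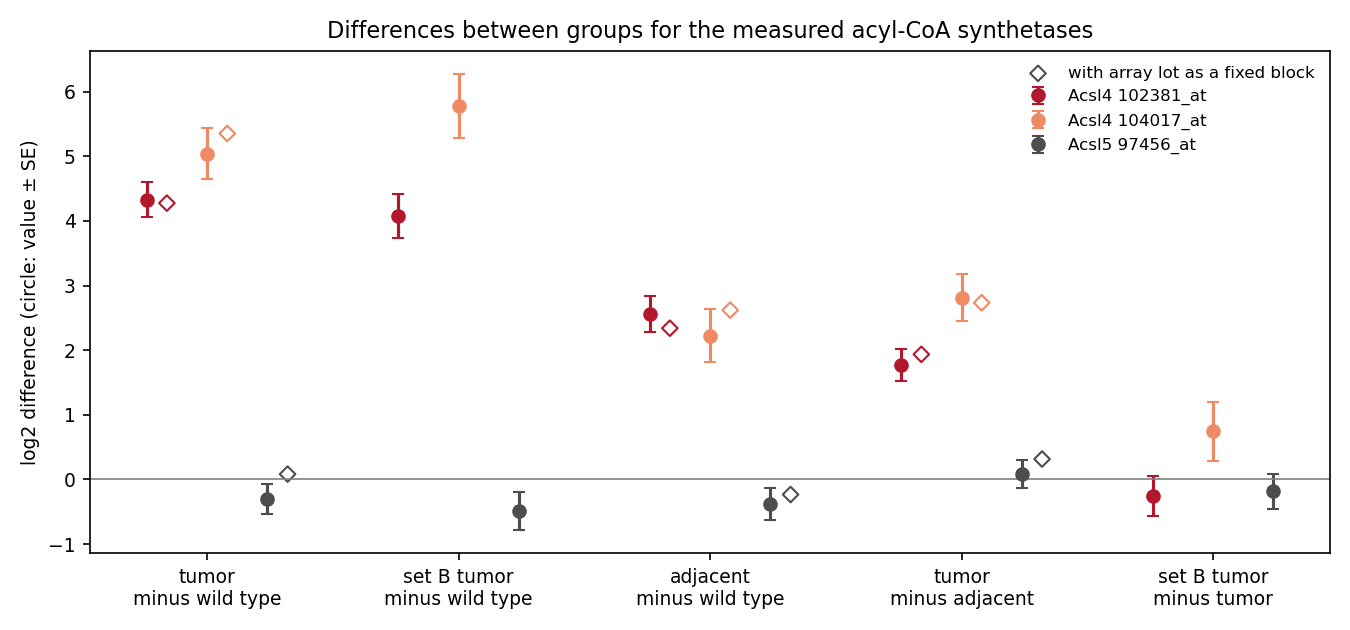
Log2 differences between groups for the 2 Acsl4 probe sets and Acsl5, with circles for the value ± SE from the fit over 8616 probe sets and open diamonds for the value with lot as a fixed block, where that could be fitted. The Acsl4 differences from wild-type gland lie between 2.23 and 5.78, and the Acsl5 circles between -0.49 and 0.08.

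Markers of other cells moved with the groups. White adipocyte markers, summed over 17 genes, came to between 16040 and 22040 in tumors, 16200 and 18620 in set B, 182800 and 318300 in adjacent gland, and 343000 and 461900 in wild-type pools. Plin4, Cidec and Rbp4 were under the floor in every tumor. The median of the luminal sum was 1.78 times that of wild-type pools in tumors, 1.73 times in set B and 1.5 times in adjacent gland. Macrophage markers (13 genes) ran between 36100 and 77110 in tumors, 40690 and 77240 in set B, 50220 and 84330 in adjacent gland, and 54430 and 58850 in wild-type pools, with medians of 0.963, 1.05 and 1.13 times the wild-type median in tumors, set B and adjacent gland. Skeletal muscle markers (16 genes) ran between 7063 and 18280.0 in tumors, 6209 and 7051 in set B, 7701 and 63490.0 in adjacent gland, and 88360.0 and 165900.0 in wild-type pools. In tumor over wild-type gland 14 of these 16 genes fell and 1 rose, against 14.1% and 15.8% of all probe sets. Brown adipocyte markers (6 genes) ran between 1798 and 3545 in tumors, 2029 and 2258 in set B, 5047 and 36810.0 in adjacent gland, and 23160.0 and 38760.0 in wild-type pools, with Ucp1 under the floor in every tumor. The median sums in tumors were 0.199 times those in wild-type pools for fibroblast, 0.259 for endothelium, 0.343 for basal and myoepithelial, 0.418 for lymphocyte and 1.6 for milk secretion markers. In adjacent gland these were 0.845, 0.713, 0.945, 1.04 and 1.76 times the wild-type medians, and skeletal muscle was 0.34 times. In set B fibroblast, endothelium, basal and myoepithelial, lymphocyte and milk secretion markers were 0.179, 0.229, 0.334, 0.257 and 0.769 times. The milk sum thus differed in direction between the tumor groups. In tumor over wild-type gland 4 of 13 milk genes rose and 1 fell (15.8% and 14.1% of all probe sets), with a median difference of -0.05. In whole tissue, fewer cells of a type and less RNA per cell cannot be told apart. The part of these cell mixtures in the Acsl4 values was not tested.

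The luminal list held genes called in both directions. In tumor over wild-type gland 11 of its 19 genes rose and 3 fell, against 15.8% and 14.1% of all probe sets. By array, the luminal sum in adjacent glands 23, 25, 49 and 51 was 107700, 74660, 118300 and 100200, and the adipocyte sum 215900, 182800, 182800 and 318300. Gland 49 had the highest Acsl4 and the highest luminal sum, and gland 51 the lowest Acsl4 and the highest adipocyte sum. Glands 25 and 49 shared the lowest adipocyte sum, with Acsl4 of 4478 and 10268 on 102381_at. Gland 25 had the lowest luminal sum but more Acsl4 than gland 51. Over all 14 arrays r between Acsl4 and the marker sums was 0.883 for luminal, -0.898 for adipocyte and -0.145 for macrophage markers. Within the 7 tumors these were 0.175, 0.001 and -0.67, and within the 7 other arrays 0.901, -0.902 and 0.348, as descriptions of points that share an array. Both the 14 arrays and the 7 other arrays mix groups that differ in Acsl4 by its choice, so group levels enter these r. The array's RNA quality controls differed between some groups. The log2 ratio of the 3′ to the 5′ actin probe sets was 0.08 to 0.76 in tumors, 0.14 to 0.21 in set B, 0.38 to 1.52 in adjacent gland and 0.90 to 1.51 in wild-type pools. For Gapdh it was -0.25 to 0.43 in tumors, -0.50 to -0.28 in set B, -0.27 to 0.27 in adjacent gland and 0.11 to 1.48 in wild-type pools. Tumor and adjacent gland overlapped for both controls. For Gapdh, both set B tumors lay below every other array, and pool 42 stood apart from pools 40 and 41, with 1.48 against 0.17 and 0.11. The part of RNA quality in the Acsl4 values was not tested.

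**Figure D3:**
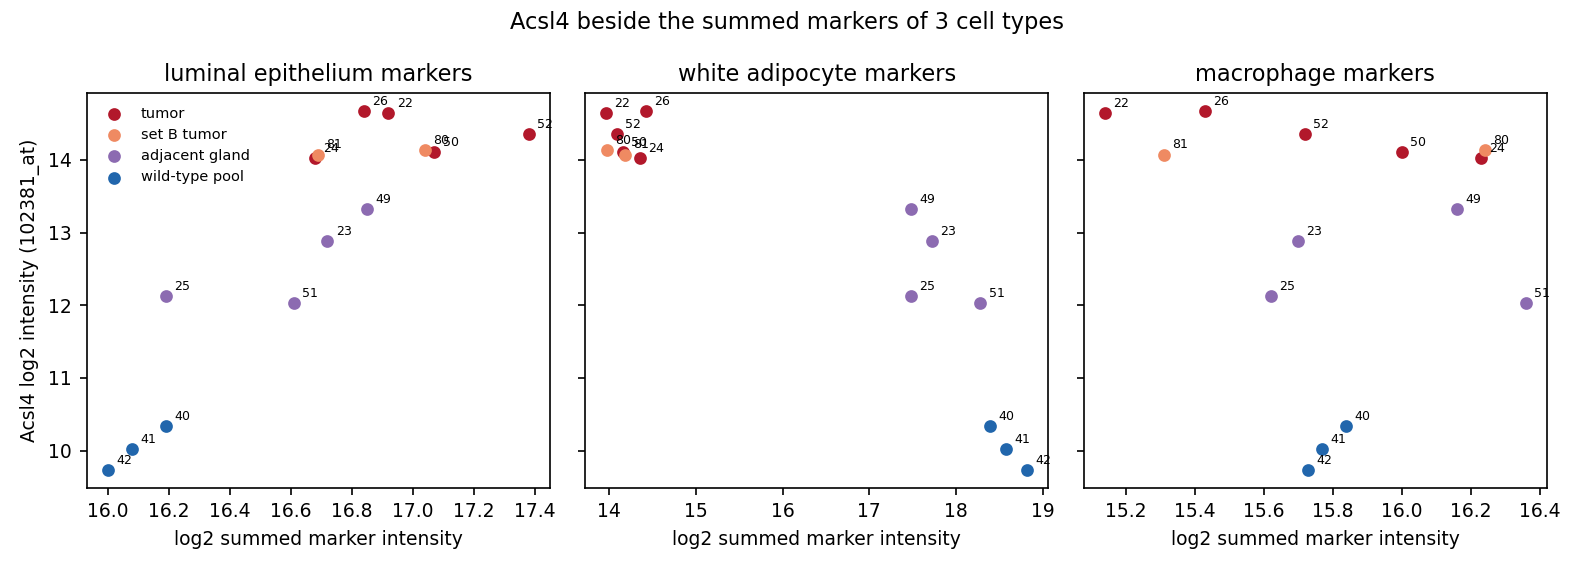
Log2 intensity of Acsl4 on 102381_at against the log2 summed intensity of luminal, white adipocyte and macrophage markers, 1 point per array, coloured by group and numbered. Tumors lie at high Acsl4 and low adipocyte sums, wild-type pools at the opposite end, and macrophage sums do not separate the groups.

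The genes most like Acsl4 were ranked by Pearson's r of their log2 values with 102381_at over the 14 arrays, among 6395 genes. The highest were Kcnn4 (a calcium-activated potassium channel, r = 0.98), Aass (r = 0.98), Dsg2 (desmoglein 2, a cell adhesion protein, r = 0.97), Flvcr2 (r = 0.97), Tspan8 (r = 0.97) and Lmo4 (a LIM-domain protein, r = 0.97). Within the 7 tumors their r with Acsl4 ran between 0.295 and 0.863, and within the 7 other arrays, which mix adjacent and wild-type gland, between 0.92 and 0.965. Acsl4 was chosen for its rise over the groups, so a high r over the 14 arrays picks genes that share that rise. Tumor minus wild-type gland was 3.34 for Kcnn4, 3.64 for Aass, 2.42 for Dsg2, 3.88 for Flvcr2, 4.29 for Tspan8 and 2.17 for Lmo4. Adjacent minus wild-type gland was 1.84, 1.94, 1.60, 1.89, 2.04 and 1.19 for the same genes in this order. For Kcnn4, the highest adjacent gland (23892) lay above tumor 24 (19169.7), so its groups were not separate. The lowest r, each -0.96, was found for Mid1ip1 (a stimulator of fatty acid synthesis), Etfb (an electron carrier of beta-oxidation) and Ghr (the growth hormone receptor). For Ghr, tumor minus wild-type gland was -4.09 and adjacent minus wild-type gland -1.62.

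**Figure D4:**
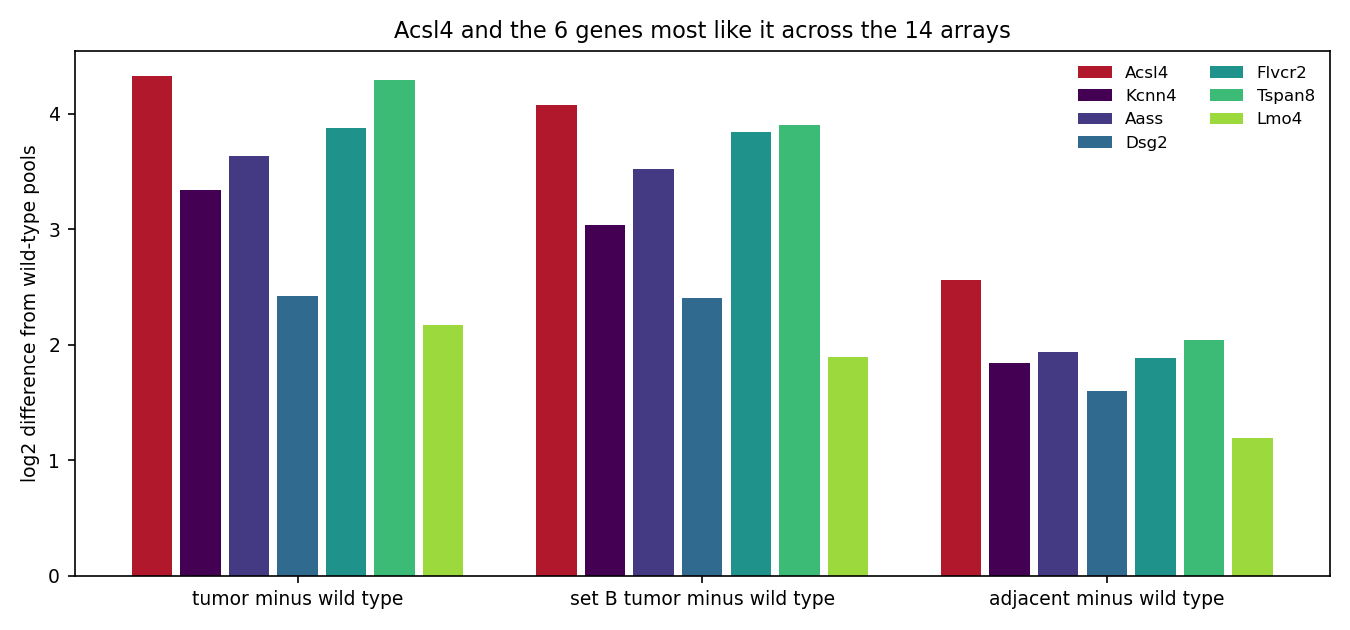
Log2 difference from wild-type pools in tumor, set B tumor and adjacent gland (bars) for Acsl4 on 102381_at and the 6 genes with the highest r over the 14 arrays. For each of the 7 genes the bar is taller in tumor than in adjacent gland, and Dsg2 shows the smallest step between them, 0.82. The 6 genes were picked by r with Acsl4, itself chosen for this order, so the shared order follows from the choice.

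The genes around Acsl4 in lipid handling were taken from 9 lists, of which 120 distinct genes were tested. In tumor minus wild-type gland 18 of the 120 rose and 48 fell, against 15.8% of all probe sets that rose and 14.1% that fell. In adjacent minus wild-type gland 0 rose and 5 fell (0.72% and 0.453% of all probe sets). In tumor minus adjacent gland 5 rose and 39 fell (5.34% and 9.04%), and in set B minus wild-type gland 11 rose and 44 fell (23.2% of probe sets called in either direction). Hmox1 was the gene of the 120 with both steps up without overlap (0.833%, against 1.15% of all probe sets). Both steps down were found for 16 of the 120 (13.3%, against 2.14% of all probe sets). The lot block, with which 360 probe sets (against 2574) were called in tumor over wild-type gland, lowered most list counts, as given below. Pla2g1b, Pla2g12a, Pla2g4a, Ptgds, Lpcat3, Srebf1, Cebpb, Tfrc, Gclm, Sat1 and Gpx4 are named below after their values were seen. Adjusted p-values are from limma with Benjamini-Hochberg adjustment.

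Among other acyl-CoA ligases, 2 of 5 tested genes rose in tumor over wild-type gland and 1 fell. Slc27a4 (a fatty acid transporter with ligase activity) rose by 1.44 ± 0.32 (adjusted p = 0.00315) and Acss1 (mitochondrial acetyl-CoA synthetase) by 1.39 ± 0.38 (adjusted p = 0.011). Slc27a1, the insulin-responsive fatty acid transporter of fat and muscle, fell by 4.53 ± 0.39 (adjusted p = 5.24e-07), at 133.3 in tumors, 106.6 in set B, 2207 in adjacent gland and 3068 in wild-type gland. Of the 9 tested thioesterases and acyl-CoA binding proteins, which act on the acyl-CoA that these ligases make, Acot8 rose by 1.14 ± 0.27 (adjusted p = 0.00412) and Acot1 fell by 1.30 ± 0.29 (adjusted p = 0.00316). With the lot block the differences were 2.21 for Slc27a4, 1.68 for Acss1 and 1.15 for Acot8, as large as without it, but not called (adjusted p = 0.0887, 0.296 and 0.257), and -5.32 for Slc27a1 and -2.47 for Acot1, both called.

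Of 19 tested genes that release or convert arachidonic acid, the preferred substrate of Acsl4, 3 rose, 8 fell and 8 were not called in tumor over wild-type gland, with a median difference of -0.70 against 0.16 over all probe sets. Ptges (prostaglandin E synthase) fell by 3.34 ± 0.43 (adjusted p = 2.88e-05), with 271.9 in tumors, 327.7 in set B, 2122 in adjacent gland and 2750.0 in wild-type gland. Hpgd, which inactivates prostaglandins, fell by 2.49 ± 0.35 (adjusted p = 6.06e-05), Ltc4s (which makes a cysteinyl leukotriene) fell by 2.22 ± 0.31 (adjusted p = 6.06e-05) and Ggt5, a leukotriene-processing enzyme, fell by 3.40 ± 0.45 (adjusted p = 3.61e-05). Hpgd and Ggt5 were under the floor in 4 of 5 tumors, so their falls are understated. Pla2g12a, a secreted phospholipase, rose by 0.77 ± 0.18 (adjusted p = 0.00381). With lot as a block 0 of the 19 were called higher and 3 lower, Hpgd (-3.14), Ltc4s (-2.42) and Alox12e (a lipoxygenase). Ptges (-2.91), Ggt5 (-2.19) and Pla2g12a (0.54) were then not called (adjusted p = 0.0907, 0.176 and 0.538). Pla2g4a, the cytosolic phospholipase that releases arachidonic acid, gave a difference of 0.75 ± 0.28 that was not called (adjusted p = 0.0521).

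In phospholipid and glycerolipid synthesis, which uses the acyl-CoA, 4 of 19 tested genes rose in tumor over wild-type gland and 5 fell. Etnk1 (ethanolamine kinase) rose by 3.06 ± 0.39 (adjusted p = 2.5e-05), with 17040.0 in tumors, 17220.0 in set B, 3972 in adjacent gland and 2044 in wild-type gland. Dgat1, the last step of triglyceride synthesis, fell by 3.11 ± 0.24 (adjusted p = 1.12e-07) and Gpam, the first step of glycerolipid synthesis, fell by 2.41 ± 0.22 (adjusted p = 7.18e-07). Chpt1 (choline phosphotransferase) fell by 2.80 ± 0.25 (adjusted p = 7.28e-07). With lot as a block 0 were called higher, and Dgat1 (-2.41), Gpam (-2.56) and Chpt1 (-2.23) were called lower. Etnk1 kept a difference of 2.89 that was not called (adjusted p = 0.0942). Lpcat3, which transfers arachidonoyl groups to phospholipids after Acsl4, had a level of 1278 in tumors, 883.9 in set B, 1267 in adjacent gland and 1174 in wild-type gland, and its difference of 0.12 ± 0.23 was not called (adjusted p = 0.721). Of 8 tested desaturases and elongases, 0 rose and 3 fell, and 0 were called with the lot block. Elovl6 fell by 4.06 ± 0.55 (adjusted p = 4.24e-05), Fads1 fell by 1.88 ± 0.32 (adjusted p = 0.000345) and Scd1 fell by 1.39 ± 0.28 (adjusted p = 0.0014). The block gave -1.98 for Elovl6, -1.79 for Fads1 and -1.07 for Scd1 (adjusted p = 0.226, 0.152 and 0.38).

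Beta-oxidation was the list with the most falls. In tumor over wild-type gland 0 of 22 tested genes rose and 19 fell, with a median difference of -1.71, and in adjacent over wild-type gland 3 fell. Cpt2 (mitochondrial import of acyl-carnitine) fell by 2.32 ± 0.21 (adjusted p = 7.06e-07), Hadhb fell by 2.63 ± 0.34 (adjusted p = 2.99e-05) and Etfb fell by 2.31 ± 0.19 (adjusted p = 2.14e-07). Abcd2, a peroxisomal importer of very long acyl-CoA, was under the floor in all 5 tumors and had 1119 in adjacent gland and 3428 in wild-type gland. It fell by 5.08 ± 0.35 (adjusted p = 4.14e-08), a lower bound. With lot as a block 4 of the 22 were called lower, Cpt2 (-1.91), Etfb (-1.78), Abcd2 (-4.31) and Acaa1b (a peroxisomal thiolase), and Hadhb, at -1.07, was not (adjusted p = 0.119). In fatty acid uptake and binding 0 of 9 tested genes rose and 6 fell, 3 of them also with the block. Lpl (lipoprotein lipase) fell by 5.82 ± 0.30 (adjusted p = 1.63e-09) and Cav1 (caveolin) fell by 4.24 ± 0.38 (adjusted p = 6.41e-07). Of 9 tested regulators 2 rose and 4 fell. Pparg, the fat cell regulator, fell by 5.11 ± 0.30 (adjusted p = 6.58e-09), understated because 3 of 5 tumors were under the floor. Cebpa, its partner in fat cells, fell by 3.88 ± 0.29 (adjusted p = 8.34e-08). The 2 that rose were Cebpb, by 1.18 ± 0.28 (adjusted p = 0.00461, and by 1.32 with the block, not called), and Srebf1, a regulator of lipid synthesis, by 1.05 ± 0.28 (adjusted p = 0.0108). With the block the difference was -4.44 for Pparg and -3.26 for Cebpa, both called, and 1.98 for Srebf1, larger than without it but not called (adjusted p = 0.0631). The white adipocyte, brown adipocyte and skeletal muscle marker sums were lower in tumors than in wild-type pools, with medians of 0.0471, 0.0928 and 0.122 times the wild-type median. Lpl, Pparg, Cd36 and Fabp4 are themselves on the white adipocyte list. The part of these cell types in the falls was not tested.

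In the ferroptosis list 6 of 20 tested genes rose in tumor over wild-type gland and 1 fell, with a median of 0.41 against 0.16 over all probe sets. Those that rose were Dhodh (mitochondrial ubiquinol supply, by 1.91 ± 0.36, adjusted p = 0.000889), Hmox1 (heme oxygenase, by 1.82 ± 0.23, adjusted p = 1.92e-05), Nqo1 (a quinone reductase, by 1.72 ± 0.51, adjusted p = 0.019), Tfrc (transferrin receptor, by 1.12 ± 0.28, adjusted p = 0.00692), Gclm and Sat1. Cisd1, a mitochondrial iron-sulfur protein, fell by 1.24 ± 0.27 (adjusted p = 0.00259). Gpx4, the peroxidase that guards against ferroptosis, had a level of 4318 in tumors, 8751 in set B, 5241 in adjacent gland and 5842 in wild-type gland, and the difference of tumors from wild-type gland, -0.44 ± 0.30, was not called (adjusted p = 0.294). In adjacent over wild-type gland 0 of the 20 were called without the lot block. Dhodh had a difference of 1.33 there, and of 1.64 with the block, which has 1 pool on the wild-type side. With lot as a block, 1 of the 20, Dhodh (1.75, adjusted p = 0.0293), was called in tumor over wild-type gland. Tfrc turned to -0.13 and Gclm to 0.08, Cisd1 to -0.18, and Hmox1 (1.37), Nqo1 (1.53) and Sat1 (1.42) were not called (adjusted p = 0.94, 0.962, 0.915, 0.115, 0.578 and 0.226 in this order).

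Of the 120 list genes, 5 were called in adjacent over wild-type gland, each of them lower. Among all probe sets 1.17% were called, 0.72% higher and 0.453% lower. List medians of adjacent minus wild-type gland ran from -0.77 (beta-oxidation) to 0.09 (ferroptosis), against 0.07 over all probe sets. The 5 genes called lower against wild-type gland were Gpam (by 1.24 ± 0.23, adjusted p = 0.0153), Echs1 (by 1.52 ± 0.26, adjusted p = 0.0118), Etfb (by 1.02 ± 0.19, adjusted p = 0.0184), Abcd2 (by 1.62 ± 0.36, adjusted p = 0.0442) and Cebpa (by 1.37 ± 0.30, adjusted p = 0.0402). Under the lot block, which has 1 pool on the wild-type side, the differences were -1.38 for Gpam, -0.93 for Echs1, -0.71 for Etfb, -1.16 for Abcd2 and -0.96 for Cebpa, and 0 of the 5 were called (adjusted p = 0.191, 0.575, 0.736, 0.84 and 0.847). Each call was also lost when one or another array was left out, pool 42 in every case. Over all probe sets the count called in this comparison ran from 14 to 200 as single arrays were left out. In tumor over adjacent gland, 33 named genes were called, and 25 of them were also called with the lot block. Named genes were picked for large differences, which favours their calls being kept. Over all probe sets 1239 were called in that comparison, and 597 with the block.

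**Figure D5:**
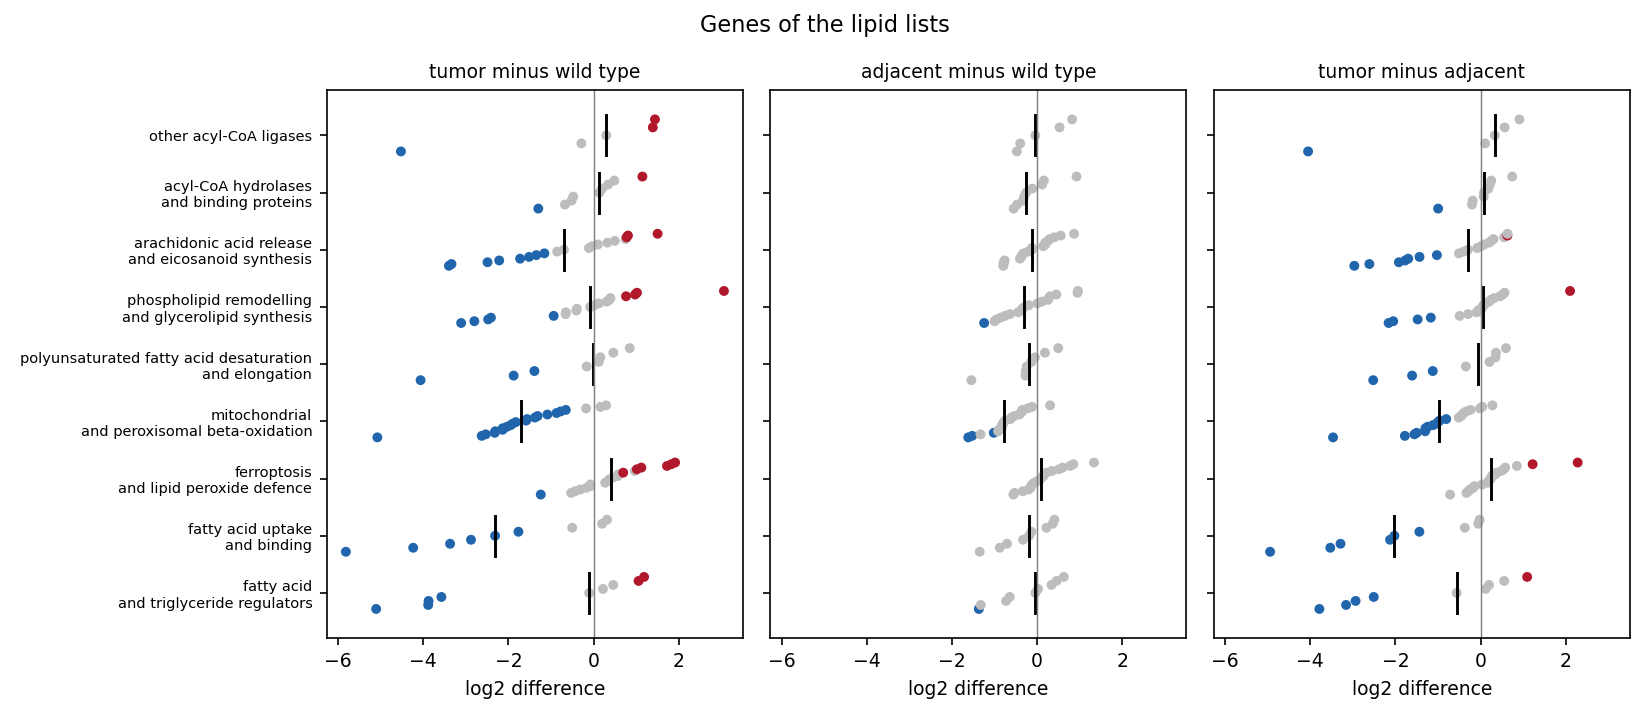
Log2 differences of the tested genes of the 9 lipid-handling lists in 3 comparisons, 1 point per gene, red where called higher, blue where called lower and grey otherwise, with a black bar at each list's median. Beta-oxidation and fatty acid uptake genes lie mostly below 0 in tumor over wild-type gland, and 0 of the 120 genes was called higher in adjacent gland.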

How the data were processed

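The authors deposited 1 signal intensity per probe set for each of 14 GeneChip arrays, each already scaled, since every array's 2%-trimmed mean is near 1500.67 to 1500.9; no source used here names the software. From these deposited intensities, values under the 20th percentile (101) were raised to it and log2 was taken. Of 12488 probe sets, 66 controls were left out and 3806 removed as dim (kept: above the 40th percentile on at least 3 arrays), which left 8616. Names came from the platform annotation updated through RefSeq (10855 probe sets with 1 gene, 396 with several, 1237 with none). Groups, taken from the labels, were fitted without a batch term in limma 3.58.1 (R 4.3.3), 5 contrasts, with Benjamini-Hochberg adjustment over 8616 and a call at 0.05. The number of arrays limits precision.

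Named genes were up to 4 called per list and comparison by size, the members, and the 6 highest and 3 lowest by correlation with Acsl4; a gene's brightest probe set stood for it. Members and lists were chosen with earlier results of these data known. Alternatives were the floor, the filter, quantile and median scaling, lot as a fixed or random block, and leaving out single arrays.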

Additional observations from a re-analysis of the deposited data

Results flagged for a closer look

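Among the genes named, 100 sets of values within a group of 4 or 5 arrays were checked for 1 array standing apart from the others, and 10 did so, 7 in tumors and 3 in adjacent gland. The measure was the gap to the next array over the range of the group. For normally spread values chance gives about 1 in 20. Where all other arrays lay under the floor, as for Ggt5 and Hpgd, the measure was 1.0 by construction. The count of flags therefore cannot be set against that rate. No Acsl4 or Acsl5 probe set was among them. In tumors, Dhodh was 3473.7 in tumor 50 against 4851.6 to 5531.8 in the others, Kcnn4 was 19169.7 in tumor 24 against 32124.8 to 39407.3, and Tspan8 was 7802.6 in tumor 22 against 5388.2 to 5938.9. Fabp3 was 912.6 and Pparg 151.9 in tumor 24, against 17.5 to 185.2 and 10.3 to 109.9 in the others. Ggt5 was 140.9 in tumor 26 and Hpgd 133.8 in tumor 50, the others lying under the floor. In adjacent gland, Chpt1 was 14449.9 in gland 51 against 6297.7 to 6695.5 in the others. Gland 49 had 3802.9 for Hmox1 against 5049.4 to 5170.4, and 856.6 for Slc27a1 against 2775.7 to 3500.0.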

How the results depend on the processing

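Acsl4 kept its direction in every alternative run, on both probe sets, for tumor, set B and adjacent gland against wild-type gland and for tumor against adjacent gland. Acsl4 was chosen for this order in the same arrays, so a kept direction follows largely from that choice. The ranges below describe only how far the size of the differences moved. On 102381_at tumor minus wild-type gland lay between 4.001 and 4.483 over 24 alternatives, adjacent minus wild-type gland between 2.24 and 2.75 over 25, and tumor minus adjacent gland between 1.58 and 2.01 over 25. On 104017_at these were 4.66 to 5.52, 1.85 to 2.68 and 2.51 to 3.17. Acsl5 was not called in any alternative, with adjusted p between 0.196 and 0.963 for tumor, 0.283 and 0.999 for adjacent gland and 0.186 and 0.63 for set B, each against wild-type gland.

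The number of probe sets called moved more. Tumor against wild-type gland gave 2574, but 360 with lot as a fixed block and 921 with lots 2004097 and 2004907, whose numbers differ by swapped digits, as 1 block. Adjacent against wild-type gland gave 101, but 53 without the filter, 56 with the lot block (1 pool on the wild-type side), 26 with the merged lots, 50 with the pools of 41 weeks only and 0 within the shared lot. Leaving out single arrays gave 14 to 200: 36 without gland 49, 200 without gland 51, and 50, 24 and 14 without pools 40, 41 and 42. Tumor against adjacent gland gave 1239, but 597 with the lot block and 209 within the shared lot. Set B against wild-type gland gave 1998, and 1053 to 2192 with single arrays left out (1138 without tumor 80 and 1053 without tumor 81). Set B against the first tumors gave 0, but 1 without the filter and 0 to 3 with single arrays left out. The within-lot fits and those leaving out arrays rest on fewer arrays, and for the other changes the cause was not tested. Set B could not be fitted with lot as a fixed block. The named genes were picked for large differences, so their calls are kept more readily by the choice. Of 39 named genes called in tumor against wild-type gland, 36 were called in every fit leaving out 1 array and 18 with the lot block.

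Acsl4 on 104017_at in wild-type pools is near the floor, and 3 of the 5 genes of the family were not analysed here.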
